A study of Mus musculus with 4 samples.

Results

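The heme biosynthesis enzymes were examined in the fetal liver of mice whose dams received a control diet (CD) or a high-fat diet (HFD). The members were Alas1, Alas2, Alad, Uros, Urod, Cpox, Ppox and Fech, together with the mitochondrial carrier Slc25a38, and every non-control probe whose transcript belongs to 1 of these genes was taken. This gave 14 probes for 9 genes, out of 56605 probes on the array and 22911 genes that could be named. All 14 probes passed the filters on low and variable signal, as did 41332 probes overall.

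Female C57BL/6J mice were fed during gestation either the CD, with 4.3% of energy as fat, or the HFD, with 60% of energy as fat, and fetal liver was collected at 14.5 days post coitum (dpc). Total RNA was labeled with Cy3 and hybridised to 4 single-colour arrays, 2 for fetuses of CD-fed dams (CD 1 and CD 2) and 2 for fetuses of HFD-fed dams (HFD 1 and HFD 2). The labels call the 2 arrays of a diet biological replicates, and neither the labels nor the methods give the number of fetuses or dams behind an array, so the p-values measure only the spread between these samples. Levels are the log2 of the processed spot intensity minus the log2 of the 75th percentile of that array, and a change is the mean HFD level minus the mean CD level.

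Heme is built from glycine and succinyl-CoA along a chain of enzymes that begins and ends in the mitochondrion and passes through the cytosol. The first and rate-limiting enzyme exists in a general form, encoded by Alas1, and an erythroid form, encoded by the X-linked gene Alas2. The fetal liver is the main site of red cell production at this stage of gestation, and maturing erythroblasts need large amounts of heme for hemoglobin, whereas hepatoblasts use heme for cytochromes and other hemoproteins. Alas1 is known to be repressed by heme, and Alas2 to be driven by the erythroid factor GATA1 and to be limited by iron at the level of translation, which arrays do not measure.

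The promoter windows of Alas1 and Alas2 are shown because these genes are compared directly below, and those of Uros and Cpox because they hold GATA motifs near a start site. Windows of 300 bases, from 250 before to 50 after the annotated start, came from RefSeq on assembly GRCm38.p6, and 11 windows matched 8 of the 9 genes. Capitals mark letters that match 1 of 4 motifs on either strand, with overlapping matches counted separately: the GATA motif (AGATAA, also with T as its first or G as its last letter), the CACC motif bound by Kruppel-like factors (CCNCNCCC), the NRF1 motif (CGCANGCG) and the TATA motif (TATAAA). The Alas2 window lies at chrX:150547167-150547466 on the plus strand, the Alas1 window at chr9:106247681-106247980 on the minus strand, the Uros window, that of the downstream start, at chr7:133702451-133702750 on the minus strand, and the Cpox window at chr16:58669958-58670257 on the plus strand.
Alas2: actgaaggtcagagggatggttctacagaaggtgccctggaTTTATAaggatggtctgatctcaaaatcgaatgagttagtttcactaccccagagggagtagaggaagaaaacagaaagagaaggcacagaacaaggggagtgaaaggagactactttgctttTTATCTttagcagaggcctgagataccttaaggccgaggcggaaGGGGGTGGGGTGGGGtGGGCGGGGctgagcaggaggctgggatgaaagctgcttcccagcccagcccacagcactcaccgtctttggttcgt
Alas1: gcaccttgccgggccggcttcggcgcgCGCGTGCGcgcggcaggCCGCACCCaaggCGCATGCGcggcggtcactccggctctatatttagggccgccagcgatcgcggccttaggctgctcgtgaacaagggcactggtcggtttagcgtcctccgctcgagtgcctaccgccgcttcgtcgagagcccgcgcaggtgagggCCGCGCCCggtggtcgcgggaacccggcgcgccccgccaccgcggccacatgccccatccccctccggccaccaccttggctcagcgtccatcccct
Uros: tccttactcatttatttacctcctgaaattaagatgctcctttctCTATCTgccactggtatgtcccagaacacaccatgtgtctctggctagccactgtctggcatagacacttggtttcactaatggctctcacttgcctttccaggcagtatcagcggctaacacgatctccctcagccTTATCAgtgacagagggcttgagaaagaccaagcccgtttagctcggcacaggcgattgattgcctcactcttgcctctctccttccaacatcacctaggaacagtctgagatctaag
Cpox: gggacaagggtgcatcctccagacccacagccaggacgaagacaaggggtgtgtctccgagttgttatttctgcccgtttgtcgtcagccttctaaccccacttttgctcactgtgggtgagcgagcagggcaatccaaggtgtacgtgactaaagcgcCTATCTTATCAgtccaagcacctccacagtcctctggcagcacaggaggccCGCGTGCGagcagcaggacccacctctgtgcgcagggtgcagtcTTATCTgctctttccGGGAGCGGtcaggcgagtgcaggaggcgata

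The Alas2 window held 1 GATA match, 4 CACC matches and 1 TATA match but no NRF1 match, and 52.3% of its bases were G or C. Its TATA match was on the strand opposite to the gene, at position -209 from the start. The Alas1 window held 2 NRF1 matches, 2 CACC matches and no GATA or TATA match, with 73.3% G or C. The downstream Uros window held 2 GATA matches and the Cpox window 3 GATA matches and 1 NRF1 match, while the upstream Uros window held 1 NRF1 match and no GATA match. The windows of Alas1 overlap each other, as do those of Alad, and share matches, so the motifs were counted by gene. Of the 8 genes with a window, 3 held the GATA motif in at least 1 window, 8 the CACC motif, 3 the NRF1 motif and 1 the TATA motif. The same motifs were present for 33%, 51.9%, 9.22% and 15.7% of all 27025 genes with a promoter window. These matches describe the letters of the windows, and no binding was measured here.

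All 4 arrays came from 1 slide and 1 scan. The 75th percentile of the intensity lay between 704.2 and 1073, between 65.4% and 70% of the probes were well above background, and no spot was saturated. All 24 hepatoblast markers and all 28 erythroid markers that had a probe were well above background on every array. The labels give the gender of every sample as female. However, the Y-linked transcripts Ddx3y, Eif2s3y, Kdm5d and Uty were well above background on CD 1 and HFD 1 and not on CD 2 and HFD 2, and Xist, which is expressed from the inactive X chromosome, showed the reverse. Eif2s3y had levels of 1.45 on CD 1 and 1.84 on HFD 1 against -6.74 on CD 2 and -6.32 on HFD 2, and Xist had levels of -8.29 and -6.84 against -0.65 and -0.74. Each diet therefore held 1 array of each kind, and the difference between the diets within each kind is given below for every member.

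No heme enzyme probe passed a threshold between the diets. By limma, 0 of the 14 probes had a Benjamini-Hochberg adjusted p under 0.05, as was the case for 0% of the 41332 probes tested, and the adjusted p of each of the 14 was 1.00. At an unadjusted p under 0.05 with a change of at least 2-fold, 0 of the 14 were called, beside 0.769% of all probes, and at an unadjusted p under 0.05 alone 0 of the 14 beside 3.35%. The 95% confidence intervals of the 14 probes all lay within a change of 2-fold in either direction, from a lower end of 0.541-fold for Slc25a38 to an upper end of 1.80-fold for Cpox. With the brightest probe standing for each gene, 8 of the 9 genes had a higher mean in HFD, with a median log2 change of 0.23, or 1.17-fold, although the change of Ppox was -0.061 under quantile normalization. Over all 14 probes the median log2 change was 0.13, with a higher mean in HFD for 10 of the 14, and with the mean over the probes of a gene the median of the 9 genes was 0.15. Over all 18205 genes tested the median log2 change was 0.039, and 10488 genes had a higher mean in HFD. Both HFD arrays lay above both CD arrays for Alas2, Alad and Uros, 3 of the 9 genes, beside 23% of all genes. They lay below them for 0 of the 9, beside 10.1%. The share above varied with the brightness of the probe, as given below.

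**Figure D1:**
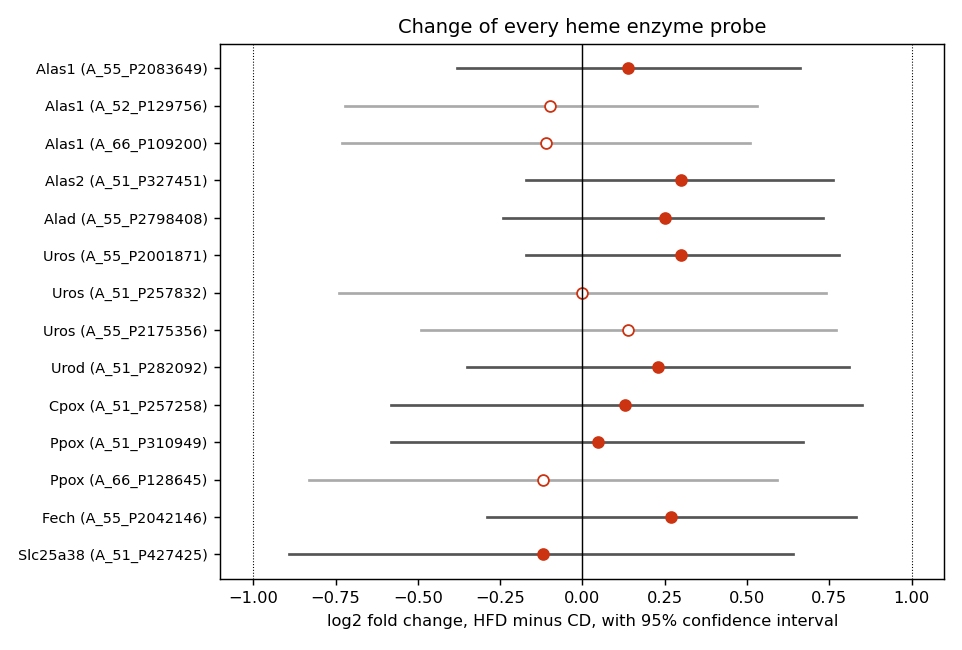
Log2 fold change, HFD minus CD, of the 14 heme enzyme probes (points) with the 95% confidence interval from limma (lines), 2 arrays per diet. Filled points are the brightest probe of a gene, open points its other probes, and the dotted lines mark 2-fold changes. Every interval includes 0 and stays inside the dotted lines.

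At the first step of the pathway, the erythroid enzyme gene Alas2 had levels of 6.81 on CD 1 and 6.83 on CD 2 and of 7.0 on HFD 1 and 7.23 on HFD 2. The CD arrays were nearly equal, and both HFD arrays lay above them. The log2 change was 0.30 with a standard error of 0.18, or 1.23-fold, and limma gave an unadjusted p of 0.156, with a 95% confidence interval from -0.17 to 0.76. Before scaling, the intensities were 120130 and 80014 in CD and 124108 and 136610 in HFD.

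The general enzyme gene Alas1 had levels of 3.49 and 3.72 in CD and of 3.61 and 3.88 in HFD with its brightest probe. HFD 1 fell between the CD arrays, so the diets overlapped. The log2 change was 0.14, with a 95% confidence interval from -0.38 to 0.66. The other Alas1 probes had log2 changes of -0.099 and -0.11, also with overlap, so the probes of this gene did not share a direction. The mean over the 3 probes was a log2 change of -0.025.

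Within an array, the ratio of the Alas2 signal to the Alas1 signal does not depend on the scaling. This ratio was higher in HFD by 0.16 on the log2 scale, and both HFD arrays lay above both CD arrays. The two-sided exact permutation test gave a p of 0.333, which is the smallest that 2 arrays against 2 can reach. The difference was 0.075 between CD 1 and HFD 1 and 0.25 between CD 2 and HFD 2.

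**Figure D2:**
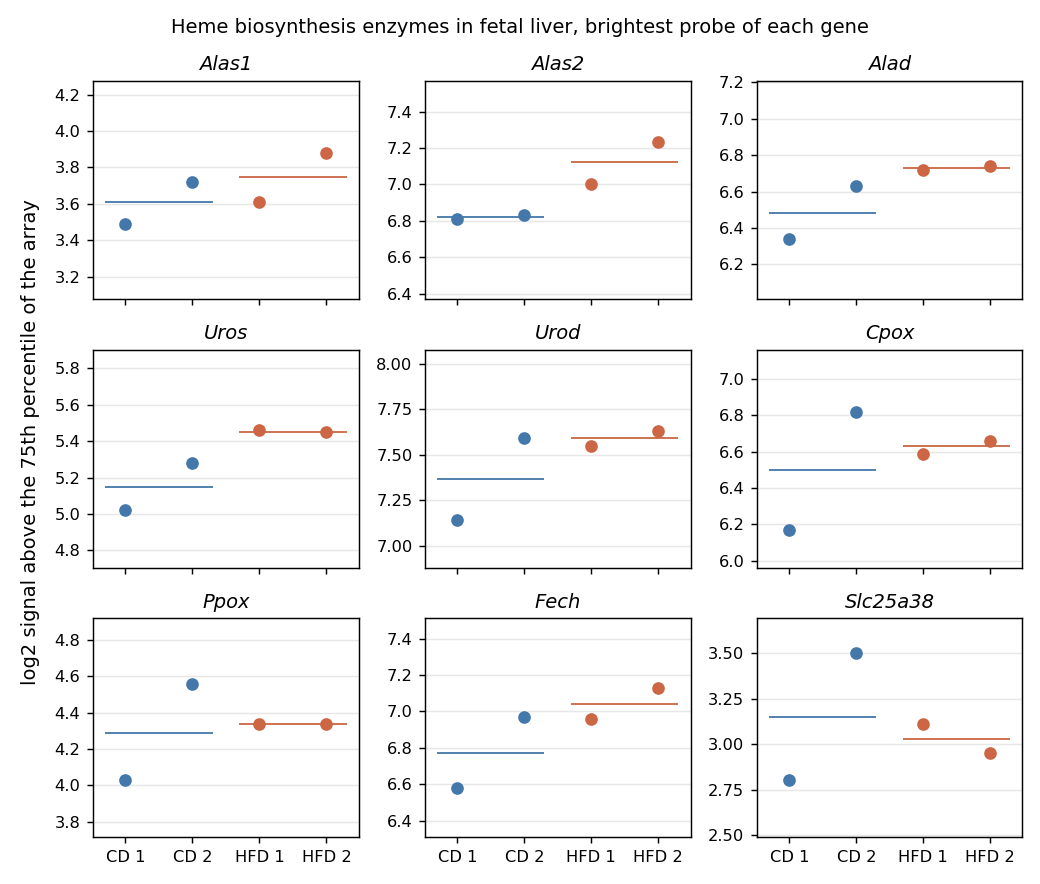
Level of the brightest probe of each heme enzyme gene on each array, as the log2 signal above the 75th percentile of the array, with CD in blue, HFD in orange and horizontal lines at the mean of each diet (n = 2). Each panel spans 1.2 log2 units around the mean of its own gene. CD 1 is the lowest array in all 9 panels, and the HFD points lie above both CD points for Alas2, Alad and Uros.

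Alad encodes the cytosolic enzyme that condenses aminolevulinic acid to porphobilinogen, the step inhibited by lead. Its levels were 6.34 on CD 1, 6.63 on CD 2, 6.72 on HFD 1 and 6.74 on HFD 2. The HFD arrays nearly coincided and lay just above the higher CD array. The log2 change was 0.25, or 1.19-fold, with a standard error of 0.18 and an unadjusted limma p of 0.247.

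Uros encodes uroporphyrinogen III synthase, which closes the tetrapyrrole ring. Its brightest probe had levels of 5.02 and 5.28 in CD and of 5.46 and 5.45 in HFD. As for Alad, the HFD arrays agreed closely while the CD arrays differed by 0.26. The log2 change was 0.30, or 1.23-fold, with a standard error of 0.18 and an unadjusted limma p of 0.158. The other Uros probes, designed on other transcripts of the gene, had log2 changes of 0.00 and 0.14, and there the diets overlapped. The probe with no change had levels of 1.38 and 2.07 in CD, which enclosed the HFD levels of 1.73 and 1.72.

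Urod, whose product decarboxylates uroporphyrinogen to coproporphyrinogen in the cytosol, had levels of 7.14 and 7.59 in CD and of 7.55 and 7.63 in HFD. The log2 change was 0.23 with a 95% confidence interval from -0.35 to 0.81. The difference between the CD arrays, 0.45, was larger than the difference between the diets.

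Cpox and Ppox encode the mitochondrial oxidases that carry coproporphyrinogen to protoporphyrin. Cpox had levels of 6.17 and 6.82 in CD and of 6.59 and 6.66 in HFD, and its log2 change was 0.13. Ppox had levels of 4.03 and 4.56 in CD and of 4.34 on each HFD array, and its log2 change was 0.047 with the brightest probe and -0.12 with the other. For both genes the HFD levels lay between the CD levels.

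Fech encodes ferrochelatase, which inserts iron into protoporphyrin in the last step. Its levels were 6.58 and 6.97 in CD and 6.96 and 7.13 in HFD. HFD 1 fell just under CD 2, and the log2 change was 0.27, or 1.21-fold, with a 95% confidence interval from -0.29 to 0.83.

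Slc25a38, the carrier that brings glycine into the mitochondrion for the first step, was the gene with a lower mean in HFD. Its levels were 2.80 and 3.50 in CD and 3.11 and 2.95 in HFD. The HFD levels again lay between the CD levels, and the log2 change was -0.12 with a 95% confidence interval from -0.89 to 0.64.

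The spread between the CD arrays followed the same order in each member. With the brightest probes all 9 genes were lowest on CD 1, as were 12 of the 14 probes and 42.7% of all genes, while 32.1% of all genes were lowest on CD 2, 11.6% on HFD 1 and 13.6% on HFD 2. The median deviation of the 9 genes from their own means was -0.29 on CD 1, against 0.058 on CD 2, 0.033 on HFD 1 and 0.15 on HFD 2. From CD 1 to CD 2 the 9 genes were higher by a median of 0.39, more than the median difference between the diets. This difference between the CD arrays ranged from 0.021 for Alas2 to 0.71 for Slc25a38, and apart from Alas2 every gene was at least 0.23 higher on CD 2. The HFD arrays differed by a median of 0.068.

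Over the whole array, the difference between the CD arrays was larger for brighter probes. Among the 11222 probes tested with a mean level under -4, the median of CD 2 minus CD 1 was -0.11, and among the 1042 probes with a mean level of 6 or more, which include 5 heme enzyme probes, it was 0.37. The median change between the diets in this brightest band was 0.04, and in the band from 4 to 6 it was 0.10. The share of probes with both HFD arrays above both CD arrays was 15.5% under -4, 39.8% from 4 to 6 and 19.1% in the brightest band. Quantile normalization, which removes differences in the overall distribution between arrays, lowered the median log2 change of the 9 genes from 0.23 to 0.17 and that of Alas2 from 0.30 to 0.24. The part of probe brightness in the changes of the members was not tested further.

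**Figure D3:**
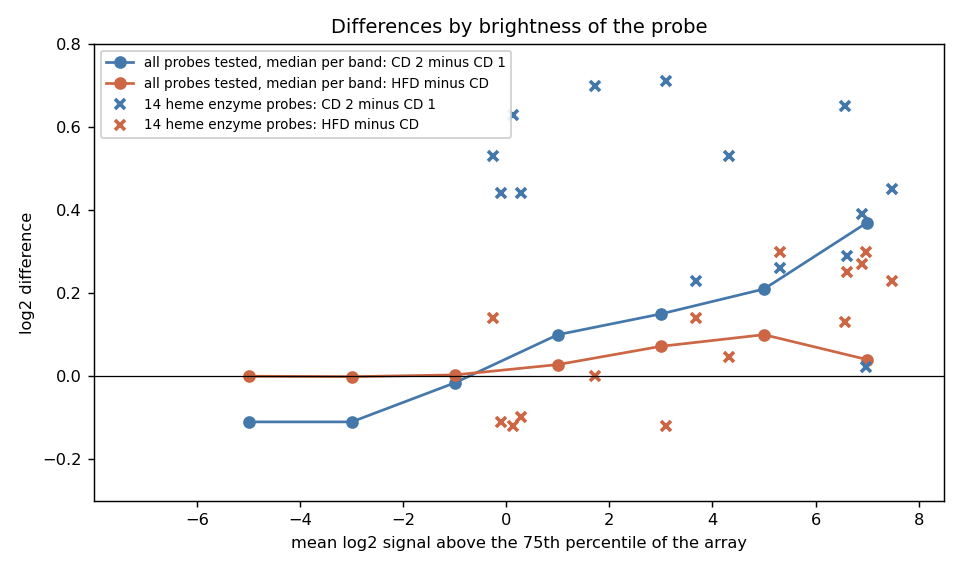
Log2 differences against the mean level of the probe, with CD 2 minus CD 1 in blue and HFD minus CD in orange. Lines join the medians of all probes tested in bands of level, drawn at the middle of each band and at a nominal point for the open-ended outer bands, and crosses are the 14 heme enzyme probes. The blue line climbs from -0.11 to 0.37 while the orange line stays between -0.0011 and 0.10.

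Leaving out CD 1 lowered the median log2 change of the 9 genes from 0.23 to 0.022, and leaving out CD 2 raised it to 0.39. Without CD 1, the log2 change of Alas2 was 0.29, close to its value with all arrays, and that of Uros was 0.17 and that of Alad 0.10. Without the same array, Urod had a log2 change of 0.0043 and Fech of 0.077, while Cpox and Ppox changed direction, to -0.20 and -0.22. Slc25a38 was at -0.47 without CD 1 and at 0.23 without CD 2. The log2 change of Alas2 lay between 0.18 and 0.41 whichever array was left out.

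**Figure D4:**
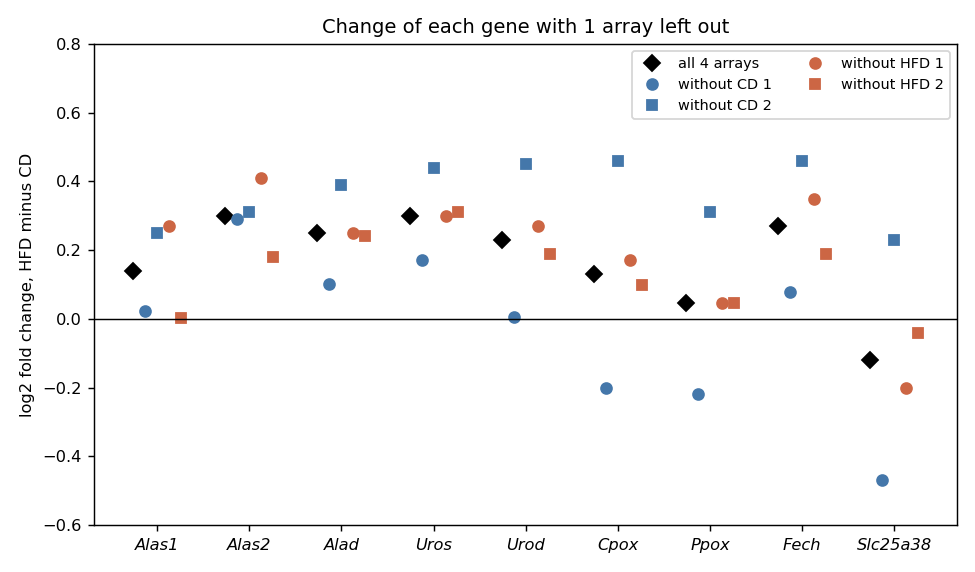
Log2 fold change, HFD minus CD, of the brightest probe of each heme enzyme gene with all 4 arrays (black diamonds) and with 1 array left out (blue for a CD array, orange for an HFD array, circles for replicate 1 and squares for replicate 2). The values for Alas2 stay between 0.18 and 0.41, whereas those for Cpox run from -0.20 to 0.46.

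Between the arrays that carried Y-linked signal, HFD 1 was higher than CD 1 for all 9 genes, by a median of 0.38 and a range from 0.12 for Alas1 to 0.44 for Uros. Between the arrays that carried Xist signal, HFD 2 was higher than CD 2 for 6 of the 9 genes, by a median of 0.11. Over all 14 probes the direction of this pair turned, with a median of -0.15 and 6 of the 14 probes higher on HFD 2, while the median between CD 1 and HFD 1 was 0.33 with 12 of the 14 higher on HFD 1. In this second pair Alas2 differed by 0.40, Uros by 0.17, Fech by 0.16, Alas1 by 0.15, Alad by 0.11 and Urod by 0.043, while Cpox differed by -0.16, Ppox by -0.22 and Slc25a38 by -0.56. Each pair is 1 array against 1 and has no test. Over all genes tested the medians of these pairs were 0.092 and 0.023, with 11086 and 9599 of 18205 genes higher on the HFD array. Brighter probes differed more in the first pair. Over all probes tested the medians of the pairs were 0.23 and 0.0036 at levels from 4 to 6, and 0.22 and -0.13 from 6 up.

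The members were also compared with each other. Over the 36 pairs of genes, the ratio of the signals of their brightest probes within each array was compared between the diets. An exact permutation p cannot fall under 0.333 with 2 arrays against 2, so no pair could pass a threshold and the differences are given as values. The widest difference was that of Uros over Slc25a38, higher in HFD by 0.43 on the log2 scale, followed by Alas2 over Slc25a38 at 0.42. The value for Uros depends on the probe, since its other probes had smaller log2 changes, of 0.00 and 0.14, than the brightest at 0.30. On CD 2, relative to the mean of the same ratio over the 4 arrays, Alas2 over Slc25a38 was at -0.55. Alas2 over Cpox was at -0.40 there, over Ppox at -0.38, over Alad at -0.16 and over Uros at -0.12. On the same array Uros, Alad, Alas1 and Fech over Slc25a38 were at -0.43, -0.39, -0.37 and -0.36. Of the 36 pairs, the ratio of Alad to Uros varied least, within 0.041 of its own mean on every array. Its difference between the diets was -0.059. This too rests on the brightest Uros probe, as another Uros probe was higher on CD 2 than on CD 1 by 0.70, against 0.29 for Alad.

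The genes that serve heme synthesis from outside the chain were described in the same way. This list of 25 mitochondrial carriers, iron-sulfur cluster genes and regulators had a median log2 change of 0.088. A change of at least 2-fold at an unadjusted p under 0.05 was found for 0 of the 25, both HFD arrays lay above both CD arrays for 4, or 16% beside 23% of all genes, and 23 were lowest on CD 1, beside 42.7% of all genes. Slc25a37, or mitoferrin 1, which brings iron into erythroid mitochondria, had levels of 7.79 and 8.33 in CD and of 8.07 and 8.22 in HFD. Tmem14c, needed for the import of a porphyrin intermediate, had levels of 7.39, 7.84, 7.77 and 7.84 in the same order, and Glrx5, an iron-sulfur cluster gene whose loss impairs heme synthesis, 6.84, 7.14, 7.20 and 7.22. Of these 3 brightest genes, the diets did not overlap for Glrx5, with a log2 change of 0.22. The other genes of the list without overlap, named after their values were seen, were Eif2ak1, the heme-regulated kinase that restrains globin translation (log2 change 0.19), Sucla2 (0.13) and Shmt2 (0.25).

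Of 17 genes of heme breakdown and transport, 0 passed a 2-fold change at an unadjusted p under 0.05, and the median log2 change was 0.061. Both HFD arrays lay above both CD arrays for Hmox1, Flvcr1, Abcg2, Cd163 and Hebp1, 5 of the 17 or 29.4%, near the 23% of all genes. They lay below them for Lrp1, at a log2 change of -0.39, beside 10.1% of all genes. Cd163 was well above background on only 1 array, with intensities from 11.1 to 20.8. The 3 brightest genes were Blvrb, Abcg2 and Hebp1. Blvrb, a biliverdin reductase of red cells, had levels of 5.75 and 6.30 in CD and of 6.22 and 6.20 in HFD. Abcg2, a transporter that can export porphyrins, had levels of 5.16 and 5.44 in CD and of 5.60 on each HFD array, a log2 change of 0.29. Hebp1, a heme-binding protein gene, had levels of 5.18 and 5.53 in CD and of 5.65 and 5.54 in HFD. Hmox1, the inducible heme oxygenase, was singled out after its values were seen and had levels of 4.14 and 4.39 in CD and of 4.62 and 4.73 in HFD. Its log2 change was 0.41, and limma gave an unadjusted p of 0.0819 and an adjusted p of 1.00.

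Most markers of the red cell lineage were lowest on the same array as the heme enzymes. Of the 28 erythroid markers tested, 24 had a higher mean in HFD and 24 were lowest on CD 1, beside 42.7% of all genes, and the median log2 change was 0.18. Their summed log2 level was 11.32 and 11.65 in CD and 11.54 and 11.69 in HFD. Hba-a1, Hbb-bt and Hbb-y, the brightest of the list, added most to this sum. For 12 of the 28, or 42.9% beside 23% of all genes, both HFD arrays lay above both CD arrays. This share varied with brightness. Over all probes tested it was 32.9% at levels from 2 to 4, 39.8% from 4 to 6 and 19.1% from 6 up. Without CD 1 the median log2 change of these markers was 0.017, and without CD 2 it was 0.37. In whole tissue, a difference in the share of erythroid cells, in RNA per cell or in CD 1 as an array cannot be told apart. The study reported fewer hematopoietic cells on stained sections of fetal liver from HFD-fed dams, and cell shares were not measured on these arrays. The adult globin genes Hba-a1 and Hbb-bt have near-identical copies that a probe may not separate. Their log2 changes were -0.091 and -0.088, with overlap between the diets. Before scaling, the intensities of Hba-a1 were 578867 and 568915 in CD and 579551 and 584714 in HFD. Those of Hbb-bt were 510842 and 527634 in CD and 518502 and 536676 in HFD. With intensities this alike, the differences in their levels mostly reflect the scaling, and a ceiling of the signal was not tested. The embryonic globin gene Hbb-y had levels of 8.75 and 7.99 in CD and of 8.77 and 9.10 in HFD. Hbb-y was thus lower on CD 2 than on CD 1, where the heme enzymes were higher on CD 2. Hba-x and Hbb-bh1 were named after their values were seen. Hba-x was also lower on CD 2 than on CD 1. Its log2 change of 1.17, with overlap between the diets, was the largest of the list. Hbb-bh1 was instead higher on CD 2, and both HFD arrays lay above both CD arrays. Its log2 change was 0.60, and limma gave an unadjusted p of 0.0409. This was the only unadjusted p under 0.05 among the 28, beside 3.35% of all probes tested. No marker of the list had an adjusted p under 0.05.

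Measured against the median deviation of the erythroid markers on each array, Alas2 and Uros each differed between the diets by 0.11. The difference was 0.079 for Fech, 0.054 for Alad, 0.036 for Urod, -0.055 for Alas1, -0.06 for Cpox, -0.14 for Ppox and -0.31 for Slc25a38. For Alas2 the array values were 0.13 and -0.23 in CD and -0.036 and 0.15 in HFD, with overlap between the diets. These differences are given as values, since the exact permutation p of 2 arrays against 2 cannot be smaller than 0.333.

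The 24 hepatoblast markers tested had a median log2 change of 0.0012, and 22 of them were lowest on CD 1, beside 42.7% of all genes, with a median deviation of -0.30 on CD 1 and 0.25 on CD 2. Alb, Afp and Serpina1a, the brightest of them, had log2 changes of -0.069, -0.013 and 0.00. The summed log2 level of the list was 11.25 and 11.88 in CD and 11.55 and 11.54 in HFD. For the 15 macrophage markers tested, of which Csf1r, Cd5l and Marco were the brightest, the median log2 change was 0.11. It was -0.03 for the 16 megakaryocyte and granulocyte markers, led in brightness by Pf4, Mpo and S100a9. CD 1 had the lowest median deviation in each of these lists. With the brightest probes, HFD 2 had the highest median deviation for the heme enzymes and the erythroid markers. Over all 14 heme enzyme probes, however, the median deviation was 0.22 on CD 2 against 0.096 on HFD 2, with 8 of the 14 highest on CD 2. Of the 28 erythroid markers, 13 were highest on CD 2 and 11 on HFD 2.

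**Figure D5:**
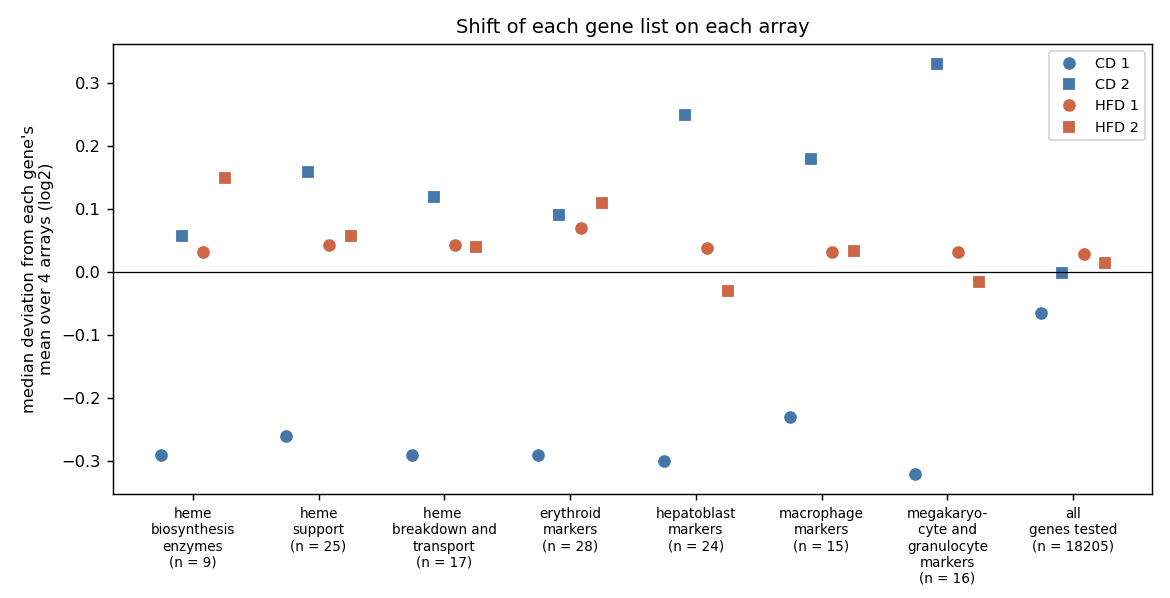
Median deviation of the genes of each list from their own mean over the 4 arrays, in log2 units, for CD (blue) and HFD (orange), with circles for replicate 1 and squares for replicate 2 and the number of genes tested under each list. Each gene is shown by its brightest probe. CD 1 is lowest for every list plotted, at -0.29 for the heme enzymes, and HFD 2 is highest for the heme enzymes at 0.15 and for the erythroid markers at 0.11.

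Markers of tissues outside the liver also differed between the arrays. Of 20 trophoblast markers, both HFD arrays lay below both CD arrays for 16, beside 10.1% of all genes. The median deviation of the 20 was 1.21 and 2.99 in CD against -1.05 and -2.81 in HFD. Many of these markers are among the genes that the study listed as most lowered on these same arrays. The count and the medians of this list are therefore a description and no independent evidence. Most of these markers were removed by the filter on variable signal, and of the 4 tested Gcm1, Psg23 and Prl3d1 were the brightest. Without that filter 17 were tested, with a median log2 change of -4.0, against -0.21 for the 4. Tpbpa, a marker of the spongiotrophoblast singled out after its values were seen, had levels of 3.01 and 4.80 in CD and of 1.00 and -1.01 in HFD. The summed log2 level of the list was 6.70 and 7.16 in CD against 6.31 and 6.54 in HFD, and Psg23 and Gcm1, for which the diets overlapped, made up the larger part of the sum on every array. Both HFD arrays lay below both CD arrays for 10 of 15 neuron markers as well, or 9 of the 14 tested, beside 10.1% of all genes. The summed log2 level of this list was 5.31 and 4.77 in CD against 4.25 and 4.78 in HFD. The brightest tested were Stmn2, Gap43 and Snap25. Ina had a log2 change of -1.19, past 2-fold at an unadjusted limma p under 0.05. Tbr1, which was not well above background on either HFD array, had an unadjusted limma p of 0.0218 and an adjusted p of 1.00. Its CD mean was at least 3.35-fold above HFD, taking the lowest signal well above background, -5.78, as the HFD level. The CD levels themselves were -5.01 on CD 1 and -3.07 on CD 2, so this bound rests mostly on CD 2. The 11 gonad and adrenal markers tested had a median log2 change of 0.57, with Foxl2, Cyp17a1 and Hsd3b1 the brightest and Cyp11a1 and Nr5a1 past 2-fold at an unadjusted limma p under 0.05, at 1.87 and 1.20. The median of this list was 0.13 without HFD 2 and 0.87 without CD 1. The part of these tissues in the values of the heme enzymes was not tested.

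The pattern of Alas2 over the 4 arrays, after centring each gene on its own mean, was nearest to those of Adam11, Zdhhc22, Dnah17, Unc5cl and Mageb1 among 16522 genes well above background on every array. The root mean square differences ran from 0.0223 to 0.0307 log2 units, and 804 genes lay within 0.1. The heme enzyme nearest to Alas2 was Alas1, at rank 1246, and the farthest was Slc25a38, at rank 13689. The pattern of Alas1 was nearest to those of Cog5, Ano7, Grm2, H2al1m and Gbp3, with differences from 0.0143 to 0.018, and 995 genes lay within 0.1. With 4 arrays such likeness describes these samples and nothing more.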

How the data were processed

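Fetal liver RNA of C57BL/6J mice was measured on 4 single-colour arrays, 2 per diet, and the sample labels gave the group and replicate number of each. The authors read the images with Agilent Feature Extraction 11.0.1.1 and deposited a processed intensity per spot, after background subtraction and spatial detrending and without scaling between arrays. The deposited flags for outlier, saturated and well detected spots are scores of 0 or 1. The normalized signal that the authors deposited in a separate table proved to be the intensity divided by 1 constant per array (1068, 701.5, 966.8 and 905.5). The scanner's own error was 10% of the intensity for every heme enzyme probe, each printed as 1 spot, and the number of arrays limits the precision.

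The log2 of the intensity was taken, spots of a probe were averaged without flagged spots, and the log2 of the 75th percentile of non-control probes was subtracted. Probes below the 20th percentile of at least 1 array (14980 probes), with all spots flagged on an array or with a linear CV over 50% in both groups (284 probes) were removed. The methods of the study name filters of these kinds but take the CV on a log scale, which here would have removed 2 probes in place of 284, and with the filter on the linear CV most trophoblast markers were not tested. The diets were compared by lmFit and eBayes of limma 3.58.1 (R 4.3.3) without covariates over all 41332 remaining probes, with Benjamini-Hochberg adjustment over all of them. The other steps ran in Python 3.11.15 with pandas 2.3.3 and numpy 2.4.6, and plots were made with matplotlib 3.10.9. The fit was tested on simulated data. Probes were named by matching transcripts to RefSeq genes of GRCm38.p6, which named 32994 of 56605 probes, and a gene was represented by its brightest probe. Of 30 erythroid markers listed, 28 had a named probe. The array files gave no coordinates that were used here.

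The text names every member probe, the 3 brightest genes tested of each list and those past 2-fold at an unadjusted p under 0.05, the genes most like Alas2 and Alas1 in pattern, and the sex-linked transcripts. The members and lists were chosen with earlier results of these data known. Alternatives were quantile normalization, scaling to the median of well-detected probes, the deposited table, normexp background correction (offset 50), other filters, the methods' t-test, the replicate number as a block, the mean over the probes of a gene and leaving out each array. The comparison within each pair of arrays with the same sex-linked transcripts was added after the data had been seen. The remaining enzyme of the pathway is not reported here.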

Additional observations from a re-analysis of the deposited data

How the results depend on the processing

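No heme enzyme probe passed 2-fold at an unadjusted p under 0.05 under any of the 14 alternatives run. Alas2, Alad, Uros, Urod and Fech kept a higher mean in HFD under every alternative, with log2 changes from 0.18 to 0.41 for Alas2. Urod, however, was at only 0.0043 without CD 1. The other filters and the replicate block cannot alter the change of a probe, so they do not bear on its direction. The ratio of Alas2 to Alas1 also stayed higher in HFD, from 0.057 to 0.32. The median log2 change of the 9 genes, 0.23 with all arrays, ranged from 0.022 to 0.39 when 1 array was left out, the lowest without CD 1, and was 0.15 with the mean over the probes of a gene. Over all probes, 318 passed 2-fold at an unadjusted p under 0.05, and 48 did with normexp, 845 without the filter on dim probes, 97 by the methods' t-test (0 after Benjamini-Hochberg adjustment) and between 654 and 1226 when 1 array was left out. At an adjusted p under 0.05 the count was 0, against 1 with normexp and between 0 and 6 when 1 array was left out, where 1 diet has a lone array that is assumed to vary like the other diet.

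Ppox changed direction with quantile normalization (-0.061), with the mean over its probes (-0.037), without CD 1 (-0.22) and within the pair with Xist signal (-0.22). Cpox did so without CD 1 (-0.20, against 0.46 without CD 2) and within that pair (-0.16), Slc25a38 without CD 2 (0.23, against -0.47 without CD 1) and within the pair with Y-linked signal (0.31), and Alas1 with the mean over its probes (-0.025). Of the list medians, heme support turned to -0.084, heme breakdown and transport to -0.09 and macrophage markers to -0.10 without CD 1, and stood at 0.33, 0.39 and 0.20 without CD 2. The hepatoblast median was -0.034 with quantile normalization, 0.00 with the deposited table, -0.28 without CD 1, 0.33 without CD 2 and -0.034 without HFD 1, and the megakaryocyte and granulocyte median was 0.31 without CD 2 and 0.0048 without HFD 2. The gonad and adrenal median, 0.57, was 0.13 without HFD 2 and 0.87 without CD 1. The trophoblast median, -0.21 over the 4 genes tested, was -4.0 over 17 genes without the CV filter, with the log2 CV or with the deposited table, -2.53 with normexp and -0.57 with probes well above background in a diet, since the genes tested differ. Other causes were not tested.

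With the replicate number as a block, 435 probes passed 2-fold at an unadjusted p under 0.05 and 0 passed at an adjusted p under 0.05. In this balanced design the replicate block cannot alter the changes themselves, and 0 of 14 heme enzyme probes were called with it. The deviations of same-numbered arrays from their group means had a correlation of -0.0997 over probes. A block for slide or scan was not run, with 1 of each. Normexp used the median brightness of each spot. The intervals, of about 1.12 log2 units in median width for the 9 genes, set what differences these arrays can resolve.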
